A study of Macaca radiata with 4 samples.

Results

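The activin and inhibin system of the corpus luteum was followed through 3 genes, follistatin (FST) and the inhibin subunit genes INHA (alpha) and INHBA (beta A), which 6 probe sets measured among the 24956 probe sets with a single gene symbol. The members were all probe sets that the array annotation assigns to these symbols: 3 for FST, 2 for INHBA and 1 for INHA, in a series of 14132 annotated genes. These genes were chosen with earlier results of the same rhLH and PBS arrays known, so their levels are described here and not tested.

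The RNA was extracted from the corpus luteum of female bonnet monkeys (Macaca radiata), the gland that forms from the ovulated follicle and makes progesterone under the drive of luteinizing hormone (LH). All animals, controls included, had received 150 µg/kg of CET on luteal phase day 7, which per the labels inhibits the monkey's own LH secretion. At 24 h, the rhLH group was given recombinant LH at 20 IU/kg intravenously and the PBS group was given the saline vehicle, and the gland was removed 8 h later. Each group comprised 2 animals and 2 Affymetrix rhesus macaque arrays, PBS replicates 1 and 2 and rhLH replicates 3 and 4; the labels give neither ages nor which animal each array came from, so the spread between arrays may be partly technical. No glands without CET are in the series, so levels before LH was withdrawn are not known.

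Activins are dimers of beta subunits that signal through type II and type I receptors to the transcription factors SMAD2 and SMAD3. An inhibin is a beta subunit joined to the alpha subunit, and it competes with activin for type II receptors, helped by the co-receptor betaglycan, the product of TGFBR3. Follistatin binds activins outside the cell and keeps them from their receptors. In primates the corpus luteum is a main source of inhibin A, the dimer of the INHA and INHBA products, and its output is known to depend on LH.

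On each of its 3 probe sets FST was higher with rhLH than with PBS on every array, while INHA and INHBA were not. INHA and the second INHBA probe set were low on PBS replicate 1 alone, and the brighter INHBA probe set was nearly level over the 4 arrays. The pooled log2 differences of rhLH minus PBS, on the scale log2(signal + 16) used throughout, ran from 1.24 to 2.26 for FST, stood at 0.95 for INHA, and were 0.07 and 1.10 for INHBA. The signals are MAS5 values in arbitrary units, scaled so that the 2% trimmed mean is 500.0 on every array.

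**Figure D1:**
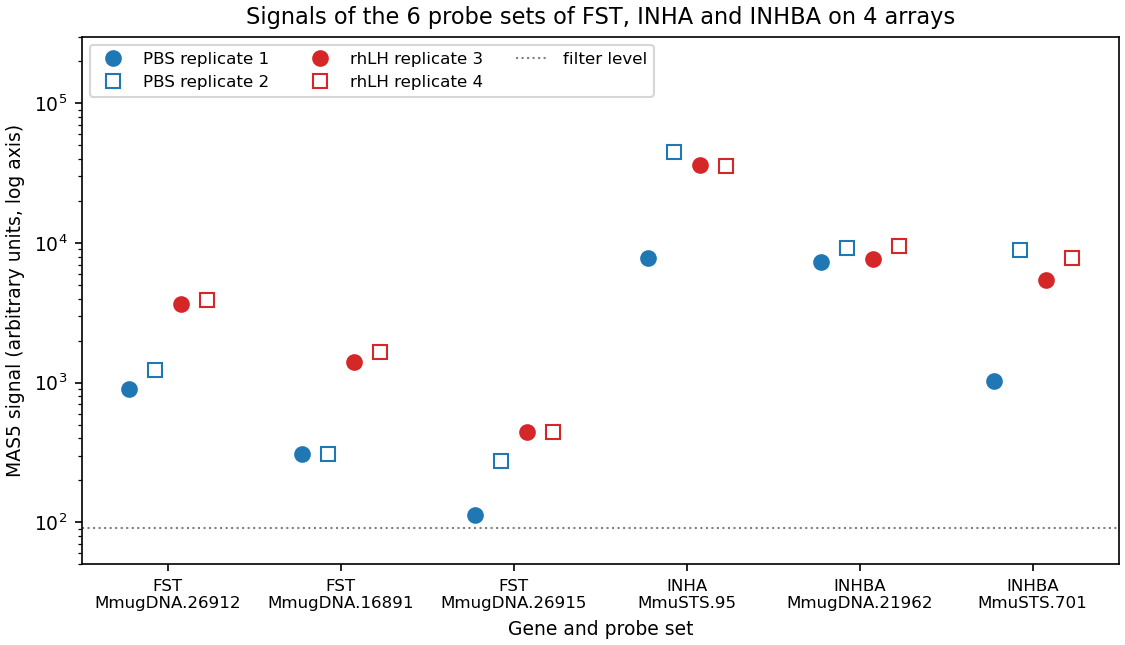
MAS5 signal in arbitrary units (log axis) of each probe set of FST, INHA and INHBA, with blue symbols for the PBS arrays, red symbols for the rhLH arrays, and a dotted line at the filter level of 90.7. On all 3 FST probe sets the red symbols lie above the blue ones, whereas for INHA and for INHBA MmuSTS.701 the symbol of PBS replicate 1 lies alone below the other 3.

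On the brightest FST probe set (MmugDNA.26912.1.S1_at), the signal was 896 on PBS replicate 1, 1231 on PBS replicate 2, 3642 on rhLH replicate 3 and 3919 on rhLH replicate 4. Both rhLH arrays were high, and the lowest of them was 2.93-fold above the highest PBS array. The rhLH mean was 2.06 above PBS replicate 1 and 1.60 above PBS replicate 2 on the log2 scale, a pooled difference of 1.83 or 3.56-fold. The PBS arrays lay 0.45 apart and the rhLH arrays 0.11, so the difference was larger than either gap between replicates.

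The second FST probe set (MmugDNA.16891.1.S1_at) read 309 and 307 with PBS, and 1412 and 1666 with rhLH. The PBS arrays were level here, at a log2 gap of −0.01 between replicate 2 and replicate 1, and the rhLH arrays lay 0.24 apart. Their mean was 2.25 above PBS replicate 1 and 2.26 above PBS replicate 2, which makes a pooled 4.78-fold difference. Among the 31659 kept probe sets, this one ranked 2 by the distance between the lowest rhLH and the highest PBS array, and the brightest FST probe set ranked 22. These ranks describe the contrast by which the gene was chosen and support nothing.

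The third FST probe set (MmugDNA.26915.1.S1_at) was the dimmest, and read 114 and 274 with PBS, and 446 and 440 with rhLH. The groups did not overlap, but the lowest rhLH array was 1.58-fold above PBS replicate 2. On the log2 scale the rhLH mean was 1.82 above PBS replicate 1 and 0.66 above PBS replicate 2, so that the pooled 1.24 was little more than the 1.16 between the 2 PBS arrays. The size of the FST difference therefore depended on the probe set, from 1.59-fold to 4.80-fold over PBS replicate 2, and its direction was the same on all 3, which measure the same gene and are not independent. Higher rhLH levels in whole-gland RNA could stand for more RNA per cell or for more of the cells that make it, and the arrays cannot tell these apart.

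All 6 member probe sets passed the filter on low signals. Of the members' 6 probe sets, 2 of the 3 for FST were at least 2-fold higher on every rhLH array than on every PBS array, against 0.344% of all kept probe sets, and all 3 FST probe sets had groups that did not overlap with rhLH higher, against 14.4%. The rule that chose the members used this contrast, so nothing is read from these counts. In the limma fit over all 31659 kept probe sets 0.0% passed an adjusted p of 0.05, in either direction, and the smallest adjusted p was 0.919. At an unadjusted p under 0.05, 278 of the 31659 were higher and 363 lower, and nothing is read from these unadjusted counts.

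INHA, which encodes the alpha subunit found in inhibins and not in activins, was among the brightest signals of these glands. Its probe set (MmuSTS.95.1.S1_at) read 7756 on PBS replicate 1, 44827 on PBS replicate 2, 36496 on rhLH replicate 3 and 35762 on rhLH replicate 4. PBS replicate 1 was low and PBS replicate 2 was the highest of the 4 arrays, so the groups overlapped. It was brighter than 99.9% of all probe sets on each of those 3 arrays and than 98.8% on PBS replicate 1.

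The rhLH arrays of INHA differed by −0.03 on the log2 scale (signals 36129 ± 519, SD, n = 2), while the PBS arrays differed by 2.53. The rhLH mean was 2.22 above PBS replicate 1 and −0.31 from PBS replicate 2, and the pooled 0.95 lies between these opposite values. The pooled difference was smaller than the gap between the PBS arrays. Without PBS replicate 1 its sign turned. Quantile normalization left the pooled value at 0.80 and PBS replicate 1 the lowest array.

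INHBA, which encodes the beta A subunit shared by activin A and inhibin A, was measured by a pair of probe sets. The brighter (MmugDNA.21962.1.S1_at) read 7308 and 9191 with PBS, and 7748 and 9553 with rhLH. Each group held a lower and a higher array, and the groups overlapped. The mean with rhLH was 0.23 above PBS replicate 1 and −0.10 from PBS replicate 2, and the pooled difference of 0.07 (1.05-fold) was smaller than the gaps of 0.33 and 0.30 between replicates.

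The other INHBA probe set (MmuSTS.701.1.S1_at) read 1025 on PBS replicate 1, 8874 on PBS replicate 2, 5418 on rhLH replicate 3 and 7840 on rhLH replicate 4. PBS replicate 1 was low and PBS replicate 2 the highest, as for INHA. The rhLH mean was 2.65 above PBS replicate 1 and −0.44 from PBS replicate 2, against a gap of 3.09 between the PBS arrays. Both INHBA probe sets placed rhLH replicate 4 above rhLH replicate 3, by 0.30 and 0.53.

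The INHBA probe sets disagreed in how PBS replicate 1 stood to the other arrays. The change from PBS replicate 1 to PBS replicate 2 differed by 2.76 between them, more than between the 2 brightest probe sets of 94.2% of the 4433 genes with at least 2 kept, where the median was 0.85. The change between the rhLH arrays differed by 0.23, below the median of 0.29 for the same genes. For FST the corresponding values of its 2 brightest probe sets were 0.46 and 0.13.

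PBS replicate 1 stood apart from the other arrays. Its Pearson correlation with them across kept probe sets was 0.752 to 0.780, against 0.940 to 0.947 among the others. Of the array's own controls, the probe set for the 5′ end of actin mRNA read 2017 on PBS replicate 1 against 31304 to 36894 elsewhere, and that for the 3′ end read 22677 against 48110 to 54943. The middle actin control read 19981 against 33757 to 42072. It was 1.89-fold below the mean of the other 3 arrays, less than the 2.26-fold of the 3′ end. The 5′ GAPDH control read 6447 against 21566 to 28699, and the 3′ one 20846 against 45825 to 54052. All 9 of the spiked controls examined were lowest on this array, by 1.17-fold to 3.15-fold below the mean of the other 3. Loss of the 5′ signal relative to the 3′ signal is a usual sign of shortened RNA. Where the member probe sets lie along their transcripts was not used here, and the part of RNA quality or of array scaling in the INHA and INHBA values was not tested.

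**Figure D2:**
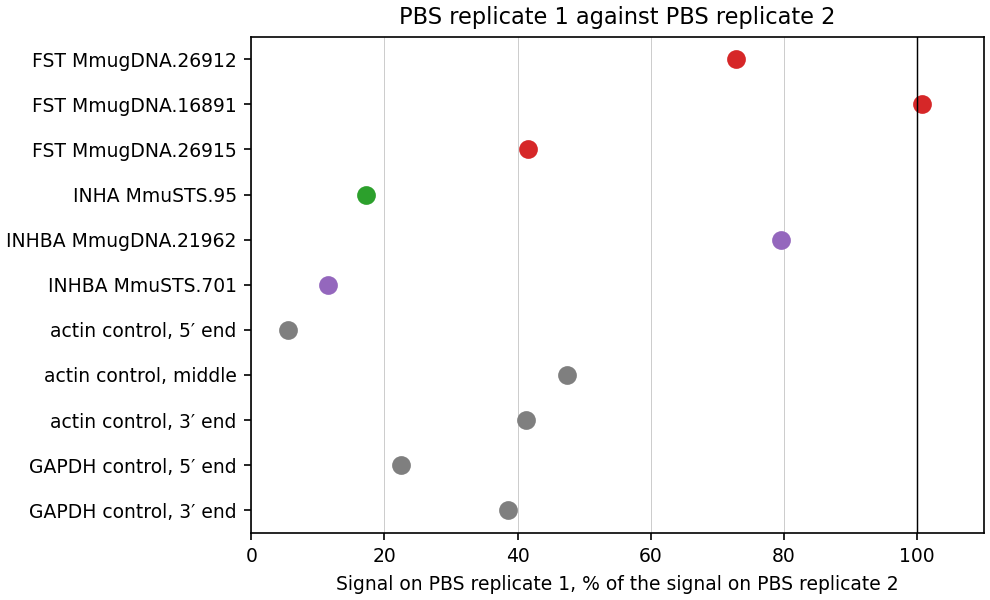
Signal on PBS replicate 1 as a percentage of that on PBS replicate 2, for the 6 member probe sets (coloured) and for 5 actin and GAPDH control probe sets (grey), with a line at equal signals. FST MmugDNA.16891 stood at 100.7%, INHBA MmugDNA.21962 at 79.5%, INHA at 17.3% and INHBA MmuSTS.701 at 11.5%, beside 5.47% for the 5′ end of actin and 41.3% for its 3′ end.

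A signal on PBS replicate 1 at least 2-fold below each of the other 3 arrays was found for INHA, for INHBA MmuSTS.701 and for FST MmugDNA.26915, 3 of the 6 member probe sets, and for 11.6% of all kept probe sets. The share was 17.2% of the brightest 10% of kept probe sets, which hold INHA and both INHBA probe sets. It was 29.7% of the brightest 1%, which hold INHA. Bright probe sets were lower on this array: the median log2 difference of PBS replicate 1 from the mean of the others was 0.12 over all kept probe sets and −0.86 over the 317 brightest, among which INHA lies. INHA itself differed by −2.32 and INHBA MmuSTS.701 by −2.80. The other 2 FST probe sets did not meet this description, being 1.37-fold apart and level between the PBS arrays, so that the FST difference of those probe sets was also present with PBS replicate 2 as the sole control.

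**Figure D3:**
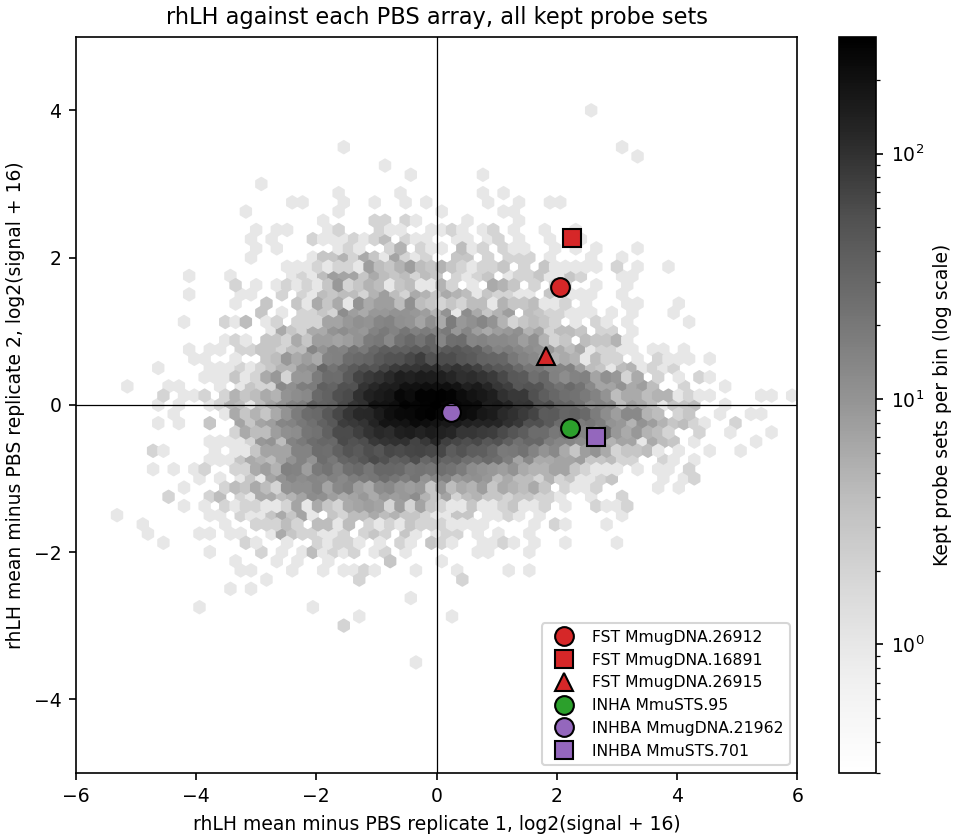
Difference of the rhLH mean from PBS replicate 1 (horizontal) and from PBS replicate 2 (vertical), in log2(signal + 16), for all 31659 kept probe sets (grey bins, darker for more) and the member probe sets (coloured). The plot leaves 2 probe sets outside its range. Both axes share the rhLH arrays. The FST symbols lie above 0 on both axes, with MmugDNA.16891 at 2.25 and 2.26, whereas INHA and INHBA MmuSTS.701 lie to the right and just below 0, at −0.31 and −0.44 on the vertical axis.

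With PBS replicate 2 as the sole control, 3.6% of kept probe sets had a rhLH mean at least 2-fold higher, the brightest and the second FST probe sets among them. With PBS replicate 1 as the sole control the share was 16.2%, and 5 of the 6 member probe sets were included, all but the brighter one of INHBA. These comparisons share the rhLH arrays.

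The other genes of the pathway were taken from lists of ligands, binders, receptors, SMADs, convertases and SMAD targets. A list of granulosa and luteal factors, mostly not part of the pathway, was counted with them. Of 77 such genes besides the members, 57 were matched to the annotation and 51 kept, and 0 passed the limma test in either direction. Taking for each gene its brightest kept probe set, 10 had both rhLH arrays above both PBS arrays and 13 had both below, against 16.3% and 16.1% of all 10998 kept genes. A single gene was higher and a single gene lower by the 2-fold rule, against 0.318% and 0.336%. The higher one was a granulosa factor, and no gene of the other lists was 2-fold higher. Without the fold, CYP19A1, HSD17B1 and NR5A2 among the higher genes came from the granulosa list alone, as did GATA4 among the lower ones. The median log2 difference was 0.05 over the 51 genes and 0.02 over all kept genes.

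These counts depended on how arrays were scaled. With each array centred on its median, the median difference over all kept probe sets moved from −0.04 to 0.19, and 12 listed genes were higher and 3 lower. With quantile normalization 10 were higher and 10 lower. Of all 31659 kept probe sets, 4573 were higher and 5608 lower as deposited. These became 7068 and 3575 with centred arrays, and 5302 and 4696 with quantile normalization. Nothing is read from the counts of listed genes. FST was higher on both rhLH arrays under all 3 scalings, at 1.80 to 2.06 on its brightest probe set.

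Neither of the other kept beta subunit genes was higher on both rhLH arrays. INHBB, the beta B subunit of activin B and inhibin B, read 3.12 on PBS replicate 1 and 284, 271 and 177 on the others, below the filter level of 90.7 on the first. INHBC read 439 and 148 with PBS, and 106 and 116 with rhLH. The groups of INHBC did not overlap, with a log2 difference of −1.10, made up of −1.84 from PBS replicate 1 and −0.37 from PBS replicate 2.

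Among the other extracellular binders and co-receptors, TGFBR3 and BAMBI were higher on both rhLH arrays. TGFBR3, the betaglycan that presents inhibin to activin receptors, read 5230 and 5842 with PBS and 7596 and 12137 with rhLH, or 0.87 and 0.72 above the PBS arrays on the log2 scale. Its further probe sets stood at pooled differences of 0.65, with groups that did not overlap, and 0.20, with groups that did. BAMBI, a pseudoreceptor that dampens TGF-beta family signals, read 665 and 1153 with PBS and 4884 and 1488 with rhLH, with rhLH replicate 3 far above the other rhLH array, for a difference of 1.60. FSTL3, a follistatin-like activin binder, read 740 on PBS replicate 1, 6099 on PBS replicate 2, and 7841 and 3329 with rhLH. Its groups overlapped, with PBS replicate 1 alone low, as for INHA. The BMP antagonist GREM1 was lower by −0.21, and its groups overlapped under both other scalings.

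Among ligands, BMP7 was higher with rhLH by 0.99 and BMP2 lower by −0.71. A further probe set of each gene had a pooled difference of the opposite sign, −0.42 and 1.09, with overlapping groups. That of BMP2 was 2.69 above PBS replicate 1 and −0.51 from PBS replicate 2, where the brightest stood at −0.33. TGFB1 differed by −0.26 and its groups overlapped under both other scalings. Of the receptors, AMHR2, the type II receptor for anti-Müllerian hormone, read 77.2 and 293 with PBS and 304 and 408 with rhLH. ACVR2A, a type II receptor for activin, differed by −0.21 and by 0.01 under either other scaling. The other 7 kept receptors overlapped between groups on their brightest probe sets. With arrays centred on their medians TGFBR1 (0.40) and TGFBR2 (0.27), the TGF-beta receptors, became higher on both rhLH arrays. That scaling put the median of all kept probe sets at 0.19. With quantile normalization the groups of both genes overlapped, at 0.06 and −0.08. As deposited, the further probe set of TGFBR1 stood at 0.03 with overlapping groups, and that of TGFBR2 was higher (0.45).

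SMAD7, an inhibitory SMAD that blocks type I receptors and that TGF-beta family signals are known to induce, was the pathway gene lower by the 2-fold rule. It read 876 and 502 with PBS, and 169 and 214 with rhLH, and a single kept probe set measured it. On the log2 scale its rhLH mean was −2.11 from PBS replicate 1 and −1.33 from PBS replicate 2. SMAD3, which carries the activin signal, was lower by −0.62, with 2889 and 3672 against 1938 and 2296, and its further probe sets stood at −0.53 and −0.28. SMAD5 was lower by −0.22, while its 5 further probe sets had positive differences. ZFYVE9, which anchors SMADs at the receptor, was higher by 0.50, and by 0.99 and 0.41 on its further probe sets.

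Of the convertases that cut the subunit precursors, FURIN read 1937 and 2054 with PBS and 1656 and 1365 with rhLH, a difference of −0.40. Of 6 kept SMAD target genes, ID3 (0.58) and PMEPA1 (0.28) were higher and CCN2 (−1.13), TGIF1 (−0.57) and ID4 (−0.31) lower on both rhLH arrays. Over all kept genes the shares were 16.3% higher and 16.1% lower. None of the 6 passed the limma test, and nothing is read from this count. The further probe set of ID3 stood at 0.02. The 3 further probe sets of PMEPA1 stood at 1.20, 1.38 and 1.10, of which the last 2 were 0.19 and 0.03 above PBS replicate 2. Those of CCN2 stood at −0.49 and −1.22 pooled but 0.06 and 0.11 above PBS replicate 2. Of the 3 for ID4, 1 was lower (−0.61) and the others, at 0.72 and 0.49, had overlapping groups. With arrays centred on their medians, the groups of SMAD3, SMAD5, FURIN, CCN2, TGIF1, ID4 and GATA4 overlapped. SMAD5 then changed sign to 0.01, whereas SMAD7 stayed lower at −1.49. With quantile normalization all of these genes stayed lower with groups that did not overlap, from −0.33 for SMAD5 to −1.61 for SMAD7.

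**Figure D4:**
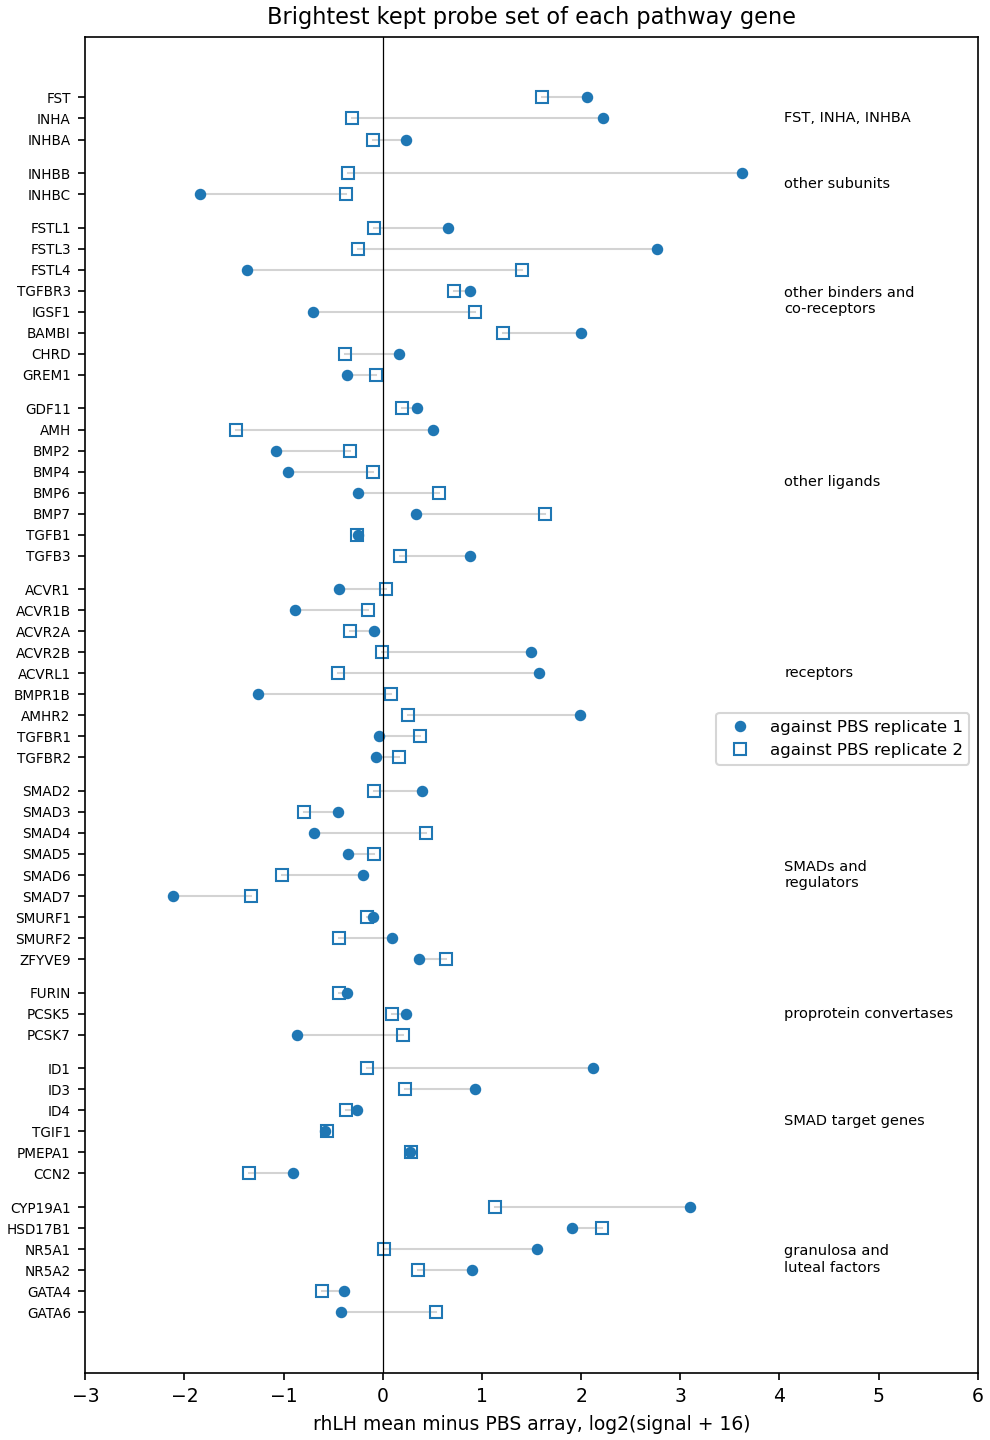
Difference of the rhLH mean from PBS replicate 1 (filled circles) and from PBS replicate 2 (open squares), in log2(signal + 16). Each row is the brightest kept probe set of a member or listed gene, granulosa and luteal factors included, grouped by role. FST lies at 2.06 and 1.60, SMAD7 at −2.11 and −1.33, and long bars such as those of INHA, INHBB and FSTL3 join values that differ between the PBS arrays.

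The granulosa lineage gives rise to the lutein cells that make inhibin. Of the 7 kept genes listed for it, 4 were higher on both rhLH arrays and 1 was lower, against 16.3% and 16.1% of all kept genes. The list was chosen with earlier results of these data known, so nothing is read from this count. HSD17B1, which makes estradiol from estrone, was the single listed gene higher by the 2-fold rule. It stands in this list alone, not among the ligands, binders, receptors, SMADs, convertases or SMAD targets. Its signals were 67.1 and 51.4 with PBS, both under 90.7, and 273 and 319 with rhLH. CYP19A1, the aromatase, was 3.10 above PBS replicate 1 and 1.13 above PBS replicate 2. NR5A2, a nuclear receptor of steroid-making cells, was higher by 0.62, and its further probe sets stood at 0.32 and, with overlapping groups, at 0.21. GATA4 was lower by −0.50, and its further probe sets stood at −0.87 and, on the opposite side with overlapping groups, at 0.45. The fourth gene was AMHR2, 1.98 above PBS replicate 1 and 0.25 above PBS replicate 2. The summed signal of the 7 genes was 11763 and 15993 with PBS, and 24336 and 31660 with rhLH. CYP19A1 made up most of that difference: without it, the other 6 genes summed to 9878 and 8562 with PBS and to 11666 and 10813 with rhLH. The part of these cells in the FST values was not tested.

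Markers of the steroidogenic luteal cell were bright on all arrays, with STAR at 24283 to 54566 and HSD3B2 at 25500 to 38138. Of 9 such markers 4 were kept, and their summed signal was 72432 and 122660 with PBS and 119334 and 129300 with rhLH. Of these 4, HSD3B2 alone was higher on both rhLH arrays, at 33922 and 38138 against 25500 and 29153 with PBS. The share over all kept genes was 16.3%. The other kept markers, STAR included, had overlapping groups. The 5 kept of 6 fibroblast markers summed to 32598 and 63334 with PBS and to 54775 and 60830 with rhLH, and the 9 kept of 10 endothelial markers to 21870 and 28476 against 24942 and 29081. The 7 kept of 8 macrophage markers summed to 4692 and 9859 against 10436 and 6359, and the 3 kept of 4 granulocyte markers to 382 and 705 against 611 and 567. All of these 5 sums were lowest on PBS replicate 1, and none of them separated the groups.

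Sums that lay higher on both rhLH arrays, as FST did, were those of pericytes and smooth muscle (4 kept of 8 markers, 5408 and 9580 against 10354 and 10154) and of T and NK cells (2 kept of 7, 4572 and 11009 against 15897 and 16101). The first separated the groups through TAGLN, and the other 3 markers summed to 2741 and 7013 with PBS and to 4236 and 3592 with rhLH, which overlap. The T and NK cell sum was nearly all GZMB, since CD8A read 50.7 to 133, and CD3D and CD3E were not matched. Red blood cell markers (2 kept of 4) summed to 1123 and 899 against 996 and 1235. Every kept marker read above 0, the lowest at 34.8, and the part of other cell types in the member values was not tested.

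The genes whose pattern over the 4 arrays was nearest to the brightest FST probe set, by Euclidean distance between log2 profiles centred on their means, were ALAS1 (distance 0.24), NKD2 (0.32), HES4 (0.39), PGAM5 (0.42) and FAM222A (0.44). ALAS1, the first enzyme of heme synthesis, read 1195 and 1960 with PBS and 4692 and 5735 with rhLH. The other 4 read below 90.7 on both PBS arrays, from 32.0 to 88.4, and 175 to 386 with rhLH. On the same measure the second FST probe set lay at 0.54, INHA at 1.71 and the brighter INHBA probe set at 1.77. INHA and INHBA MmuSTS.701 lay 0.58 apart, nearer to each other than the 2 INHBA probe sets were (2.22). These distances rest on 4 arrays and, for INHA, mostly on PBS replicate 1.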

How the data were processed

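The deposited values are probe set intensities on a linear scale, made by the authors with Affymetrix Microarray Suite 5.0 (MAS5), per the labels and the submitters' processing notes. The scaling target, the detection calls and any filter were not given in the sources used here. Of 52865 probe sets, 99 controls were set aside, and 31659 of 52766 had a mean log2(signal + 16) above the 40th percentile (a signal of 90.7) and were kept. Symbols came from GEO's platform annotation: 24956 probe sets had 1 symbol, 361 several and 27449 none. Kept ones with 1 symbol covered 10998 genes. No further normalization was applied. Groups came from the sample titles. The limma fit (version 3.58.1 under R 4.3.3; lmFit and trended eBayes, two-sided, Benjamini-Hochberg adjustment) took in all kept probe sets. It was also run on simulated data in which every array had the same spread. No simulated array stood apart as PBS replicate 1 does, so that run does not show how the fit behaves on these arrays. The number of arrays, 2 per group, limits the precision of every value.

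Members and lists were chosen with earlier results of these data known. Genes named from a list had both rhLH arrays on one side of both PBS arrays, at most 3 per list and side, taking the brightest kept probe set, with the 5 genes nearest to FST. INHBB, FSTL3, TGFBR1, TGFBR2 and the marker genes were named after their values were seen. The array carries rhesus macaque probes, and no sequences were used here. Alternatives were other scalings, pseudocounts, filters and variance priors, and leaving out each array.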

Additional observations from a re-analysis of the deposited data

How the results depend on the processing

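No paired analysis was possible because the labels give the groups no shared replicate numbers. Across 9 alternatives each, the 3 FST probe sets kept a positive difference, from 1.60 to 2.06 (MmugDNA.26912), 2.10 to 2.48 (MmugDNA.16891) and 0.66 to 1.82 (MmugDNA.26915). The second moved by more than its replicate SD with arrays centred on their medians (2.48) and with a pseudocount of 64 (2.10), and the brighter INHBA probe set with centred arrays (0.30). INHA turned to −0.31 and INHBA MmuSTS.701 to −0.44 without PBS replicate 1. With 2 arrays per group, leaving out an array cannot move a difference by more than the replicate SD. The SD is therefore no measure of how stable these 2 values were. The brighter INHBA probe set took both signs, −0.10 to 0.30. The ratio of mean signals, added after seeing the data, gave 0.46 for INHA and 0.42 for INHBA MmuSTS.701.

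Limma made 0 calls under every alternative but without PBS replicate 2, where it made 8169 (0 to 8169 over arrays left out). Its PBS group is then the array that stands apart. The 109 probe sets 2-fold higher became 175 with centred arrays, 65 with a pseudocount of 64, 378 without a filter, 42 at the 70th percentile and 223 to 4140 with an array left out. Beside 155 lower, the split was 109 to 155, 152 to 119 with quantile normalization and 175 to 113 with centred arrays.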
